A study of Mus musculus with 4 samples.

Results

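The constitutive gene-end regions are stretches of open chromatin that were called in every library of the series and lie at the start or finish of a protein-coding gene. Omni-ATAC-seq, in which a transposase cuts accessible DNA and leaves sequencing adapters there, was run on cultured bone marrow-derived cells of C57BL/6J mice. The 4 libraries, 1 per group, came from CMP/GMP cells (labelled as common myeloid and granulocyte-monocyte progenitors) and from cells labelled monocytes, each in a wild-type (WT) and a Cxcr3-/- form. Cxcr3 encodes the receptor for the chemokines Cxcl9 and Cxcl10, and Cxcr3-/- mice lack it; the labels do not say how that allele was made. The labels give hepatocellular carcinoma as the disease state of all 4 libraries and the series describes diethylnitrosamine and CCl4 treatment of mice, while the cells profiled here are described as cultured in vitro. Each group has 1 library, hence no replicates, and no p-value is given. The intervals of log2 ratios below cover counting error only. The intervals of shares treat regions or genes as independent draws and do not cover variation between libraries.

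The deposited intervals of the 4 libraries, on chromosomes 1 to 19 and X of mm10, were merged into 120423 regions wherever they shared a base. A region became a member if all 4 libraries had an interval in it, if it reached within 1 kb of an annotated end of a protein-coding gene, and if it was narrower than 1500 bp. This gave 11810 members, 9.81% of all merged regions and 26.5% of the 44591 regions called in all 4 libraries. The calls chose the members, so membership and the presence of signal in each library are descriptions. Another 93 gene-end regions called in all 4 libraries were left out by width, with Csf2ra (1501 bp), Lats2 (1506 bp) and St3gal4 (1508 bp) nearest the limit. Exoc8 and Arglu1 (1498 bp each) and Rufy3 (1497 bp) were just inside it. At the window's edge the members at C130050O18Rik, Clec9a and Pfn3 came to 1000 bp from an end, and the regions near Mcmdc2, Tgm3 and Inka2, at 1001 bp, were not members.

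Around the first base of a transcribed gene the DNA is usually kept free of nucleosomes, so that general transcription factors and RNA polymerase II can bind, and a transposase cuts readily there. Many genes used in every cell start inside a CpG island, a stretch rich in the CG dinucleotide that is accessible across cell types, while genes confined to 1 lineage more often have CpG-poor starts whose opening depends on factors of that lineage. Enhancers, which lie away from gene starts, differ most between cell types.

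The letters upstream of a few members show both kinds of start. Each is the 250 bases before the first base of the gene, from RefSeq on GRCm38.p6 (the assembly behind mm10), read 5′ to 3′ on the gene's strand, with capitals where it matches one of the factor patterns given further on. Hjurp (chr1:88277580-88277829, minus strand) had the highest signal of all members, Rpl27a (chr7:109518945-109519194, plus) was among the most even across libraries, Pgk1 (chrX:106186850-106187099, plus) ranked first toward Cxcr3-/- in both cell types, C1qc (chr4:136892915-136893164, minus) was among the 10 members most in favour of monocytes, Kit (chr5:75574737-75574986, plus) was among the 10 most in favour of CMP/GMP, and Cxcr3 (chrX:101734148-101734397, minus) is the gene removed in the study.
Hjurp: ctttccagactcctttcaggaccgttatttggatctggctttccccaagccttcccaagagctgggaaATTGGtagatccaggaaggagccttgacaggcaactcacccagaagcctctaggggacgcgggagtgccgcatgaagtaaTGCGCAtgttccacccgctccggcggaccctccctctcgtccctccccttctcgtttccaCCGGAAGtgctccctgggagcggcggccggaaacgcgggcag
Rpl27a: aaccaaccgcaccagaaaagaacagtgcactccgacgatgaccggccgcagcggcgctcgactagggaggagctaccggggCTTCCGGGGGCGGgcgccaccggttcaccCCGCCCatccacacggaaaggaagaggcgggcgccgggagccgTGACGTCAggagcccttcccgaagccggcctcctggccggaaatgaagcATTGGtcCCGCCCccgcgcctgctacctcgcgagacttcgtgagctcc
Pgk1: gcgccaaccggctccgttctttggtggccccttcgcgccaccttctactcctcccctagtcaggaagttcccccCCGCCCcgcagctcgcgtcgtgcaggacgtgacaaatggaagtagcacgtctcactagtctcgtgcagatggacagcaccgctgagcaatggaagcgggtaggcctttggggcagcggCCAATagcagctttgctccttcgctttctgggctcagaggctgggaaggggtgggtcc
C1qc: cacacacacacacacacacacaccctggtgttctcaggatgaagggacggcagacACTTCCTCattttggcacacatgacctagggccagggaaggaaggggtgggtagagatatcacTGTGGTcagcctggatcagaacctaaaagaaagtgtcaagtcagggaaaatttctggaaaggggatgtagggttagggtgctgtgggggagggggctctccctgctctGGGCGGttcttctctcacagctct
Kit: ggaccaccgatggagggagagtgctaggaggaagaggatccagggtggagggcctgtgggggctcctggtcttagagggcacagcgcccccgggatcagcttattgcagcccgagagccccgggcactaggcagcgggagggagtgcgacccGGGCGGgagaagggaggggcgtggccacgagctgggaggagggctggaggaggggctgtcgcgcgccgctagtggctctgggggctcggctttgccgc
Cxcr3: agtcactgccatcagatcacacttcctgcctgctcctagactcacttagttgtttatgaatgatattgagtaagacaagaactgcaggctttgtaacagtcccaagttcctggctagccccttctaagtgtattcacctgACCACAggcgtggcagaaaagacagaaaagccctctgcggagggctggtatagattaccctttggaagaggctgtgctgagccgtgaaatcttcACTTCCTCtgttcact
The Rpl27a stretch holds 29 CG dinucleotides, an observed to expected ratio of 0.98, and matches for SP/KLF, NFY, ETS and CREB factors. Hjurp holds 16, Pgk1 17 and Kit 17 CG dinucleotides. The C1qc stretch holds 2 and the Cxcr3 stretch 3, with ratios of 0.11 and 0.21, and each has 1 match to the PU.1 pattern and 1 to the RUNX pattern of blood cell factors. C1qc also has 1 match for SP/KLF factors. The same stretch of C1qb, not printed and another of the 10 members most in favour of monocytes, holds 6 CG dinucleotides. It matched none of the patterns.

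Gene ends were called in all 4 libraries more often than other places: 11903 of 19397 gene-end regions (61.4%, exact 95% interval 60.7 to 62.1) against 32688 of 101026 regions elsewhere (32.4%, 32.1 to 32.6). Of the members, 8556 (72.4%) contained an annotated gene end and the others lay beside one. Most served 1 gene (9952), and 1812 reached the ends of 2 genes. RefSeq promoter records gave the strand of 17274 of the 21631 protein-coding genes, which split the members by role. The first base of a single gene accounted for 7125 members (60.3%), and 873 (7.39%) lay between or over the first bases of 2 genes on opposite strands. A first and a last base fell together in 510, only a last base in 778 (6.59%), and 2493 touched a gene whose strand was not known.

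Counted by gene, 11549 of 21631 protein-coding genes (53.4%) had a member at an end, and 1186 had members at both ends. Among the genes of known strand, 8880 (51.4%) had a member at the first base and 1402 (8.12%) at the last. Chromosome 8 had the highest share of genes with a member (61.5%) and X the lowest (333 of 966 genes, 34.5%, interval 31.5 to 37.6), with chromosome 7 next to it at 43.5%. Chromosome 7 carries many olfactory receptor genes, and their part in its share was not tested.

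The highest point of a member, its summit, centred on the first base where the member lay at the start of a single gene. For these members the median summit lay 3 to 7 bp upstream of that base, depending on the library. Between 50.4% and 52.3% of their summits were within 100 bp of it, and 68.8% to 69.9% within 250 bp. The members at a last base had no such focus: 3.60% to 4.24% of their summits were within 100 bp, and the summits spread evenly over the window apart from a dip at the last base itself. The outermost summits of the 4 libraries were 56 bp apart in the median member, and in 75.6% of members within 100 bp, so the libraries placed the opening at nearly the same bases. In the comparison set, the 32662 regions called in all 4 libraries under the same width limit but away from gene ends (distal regions from here on), the median was 51 bp and the share 83.6%.

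**Figure D1:**
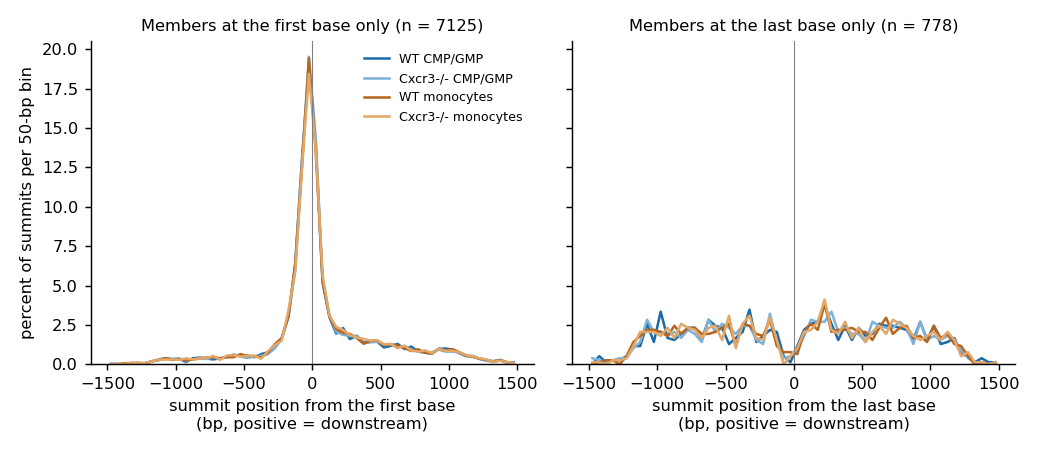
Position of the summit in each of the 4 libraries, in bp from the first base (left) or last base (right) of the gene, as percent of summits per 50-bp bin. The 4 curves at the first base overlie each other with 1 peak just upstream of it, and those at the last base are flat with a dip at 0 bp.

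Signal is given as the summit pileup, the number of tags (aligned reads or fragments as the authors' caller extended them) that cover the summit, recovered from the deposited fold and −log10 p values and divided by a factor per library so that the median region called in all 4 libraries compares as equal. Values by library are given first for CMP/GMP, WT before Cxcr3-/-, and then for monocytes, WT before Cxcr3-/-. The median scaled pileup of members was 51.1, 54.1, 54.2 and 49.8 tags. The distal regions had medians of 29.2, 28.2, 30.8 and 30.9 tags, lower in every library. Members were also wider, with a median of 679 bp (quartiles 481 and 875) against 402 bp. Ranked by mean scaled pileup among all 44472 narrow regions called in all 4 libraries, 88 of the top 100 and 791 of the top 1000 were members, against 26.6% over the whole ranking.

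The roles differed in strength. Members between 2 divergent starts were the strongest, with a median mean pileup of 72.7 tags and a median width of 803 bp, and members at the first base of a single gene had 55.2 tags and 697 bp. Members at a last base only had 30.4 tags and 391 bp, close to the 30.9 tags and 402 bp of distal regions. The pair Tcp1, a subunit of the CCT chaperonin that folds actin and tubulin, and Mrpl18, a mitochondrial ribosomal protein, shares 1 such divergent member at 229, 230, 172 and 173 scaled tags.

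**Figure D2:**
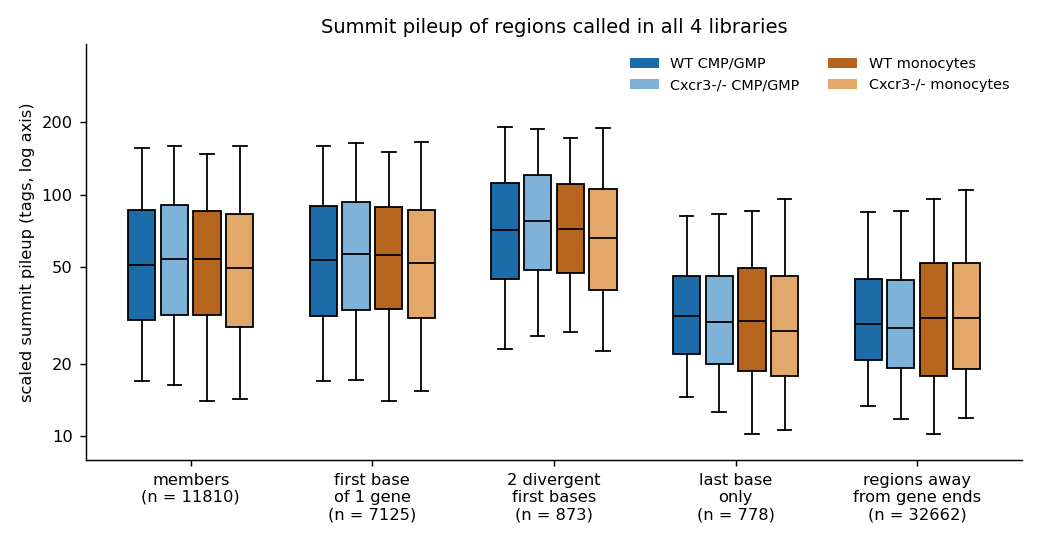
Scaled summit pileup (tags, log axis) by library for all members, 3 of their roles and the distal regions called in all 4 libraries; boxes span the quartiles with the median as a line, and whiskers run from the 5th to the 95th percentile of regions. Members at divergent starts lie highest, and members at a last base only overlap the distal regions.

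The 10 strongest members all lay at gene starts. Hjurp, the chaperone that loads the centromere histone CENP-A, led with 561, 507, 325 and 419 scaled tags, lowest in WT monocytes. Zbtb20, a zinc finger repressor, had 360, 326, 270 and 412 tags, and Pja2, a ubiquitin ligase, 325, 303, 320 and 401. The next were Cggbp1, which binds CGG repeats, at 355, 384, 252 and 354 tags, Opn3, an opsin, at 354, 280, 250 and 310, and Bcl10, an adaptor of NF-kB signalling, at 289, 265, 276 and 339. Sel1l and Mon1b, which act in degradation of endoplasmic reticulum proteins and in endosome maturation, and Qdpr, an enzyme of tetrahydrobiopterin recycling, and Arrdc4, an arrestin family member, had means of 276 to 287 tags.

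Members had the sequence of CpG islands. RefSeq promoter sequences (300 bases, 250 before and 50 after the first base) were at hand for 8773 starts inside a member, 2539 inside another called region and 9733 inside none. Those in members had a median of 62.0% GC and an observed to expected CpG ratio of 0.80, and 80.9% reached 0.6, a usual limit for CpG islands. Starts in other called regions were similar in GC (61.0%) with a ratio of 0.67, and 59.7% reached 0.6. Starts in no called region had 49.7% GC, a ratio of 0.24 and 15.6% at 0.6 or above, so the class without a call held most of the CpG-poor starts. The share over all 21045 sequences was 48.1%.

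**Figure D3:**
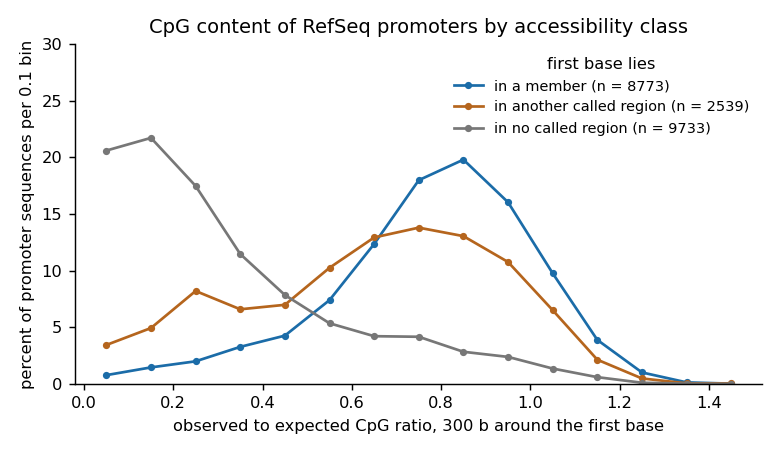
Observed to expected CpG ratio of the 300 bases around the first base, as percent of promoter sequences per bin of 0.1, for starts inside a member, inside another called region and inside no called region. Starts in members peak near 0.85, and starts in no called region below 0.2.

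Patterns of factors that act at many promoters were common in members. The GC box of SP/KLF factors (GGGCGG) was in 69.8% of the member promoters, 61.3% of those in other called regions, 22.0% of those in none, and 46.7% of all promoters of this length. The ETS pattern (CCGGAAG) was in 22.0%, 9.53% and 2.92% of the 3 classes and 11.7% of all. The YY1 pattern (AAGATGGCG) was in 3.78%, 1.38% and 0.21%, and 1.84% of all. All patterns were read on both strands, and these 3 hold CG, so that their shares go with the CpG content above.

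Further CG-holding patterns had the same order of classes. The core of the NRF1 site (TGCGCA) was in 16.4% of member promoters and 9.74% of all. The CRE of CREB/ATF factors (TGACGTCA) was in 3.88% and 2.26%, and its shorter form (TGACGT), which the full site also matches, in 13.4% and 8.58%. The USF/MYC E-box (CACGTG) was in 11.2% and 7.91%.

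The CCAAT box of NFY (CCAAT) differed little between classes, at 40.5%, 31.8% and 38.4%, with 38.5% of all. It went with the height of a member more than the other patterns did: the median mean pileup was 78.9 tags for the 2966 members with a match and 54.8 without. For the GC box the medians were 67.5 and 55.5 tags. A match is a run of letters and not a bound site.

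The TATA box and the patterns of blood lineage factors other than PU.1 had lower shares in members than in starts without a call. TATAAA was in 5.82% of member promoters, 7.96% of those in other called regions and 20.05% of those in none. The C/EBP pattern (TTGCNNAA) was in 7.57% of member promoters and 10.3% of all, AP-1 (TGANTCA) in 4.05% and 7.04%, RUNX (TGTGGT) in 11.7% and 14.7%, and the motif AGATAA of GATA factors in 5.14% and 9.68%. The PU.1 pattern (GAGGAAGT) was in 3.44% of member promoters, 2.72% of those in no called region and 3.15% of all. Starts in members were richer in GC than starts in no called region (medians of 62.0% and 49.7%). The part of base composition in these shares was not tested.

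Genes of core cell functions had a member more often than genes at large. Over the 13 lists counted as core 725 of 868 genes did (83.5%, interval 80.9 to 85.9), beside 53.4% of all protein-coding genes. The zinc finger Zfp genes, a family and not a single function, supply 394 of the 868 and 286 of the 725. Their share, 72.6%, was the lowest of the 13 and pulls the pooled share down. The spliceosome core had 36 of 36 and the CCT chaperonin 8 of 8. Complex I of the respiratory chain had 37 of 38, mitochondrial ribosomal proteins 74 of 78, cytosolic ribosomal proteins 74 of 81, aminoacyl-tRNA synthetases 35 of 37, translation initiation factors 38 of 41, Mediator 28 of 30, RNA polymerase II 12 of 13 and the proteasome 36 of 39. DNA replication and cell cycle genes had 44 of 50, with the highest median pileup of the larger lists, 96.9 tags. The V-ATPase that acidifies lysosomes had 17 of 23 and the zinc finger Zfp genes, mostly transcriptional repressors, 286 of 394.

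Some core genes without a member are tissue-restricted copies. Psmb11 and Psma8, the thymus and testis forms of proteasome subunits, had no region at an end, and neither had Rpl10l, a testis copy of a ribosomal protein, nor the V-ATPase subunit Atp6v0a4 of the kidney. Others were open but left out by the rule: the regions at Polr2a, the largest subunit of RNA polymerase II, and Rpl7 were called in all 4 libraries and were too wide. At Eprs, Orc1 and Psma6 a region called in all 4 libraries lay at another RefSeq start of the gene, outside the window of its annotated ends.

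The core lists held even members and members lower or higher in monocytes. In WT 11 of 640 measured were past 2-fold higher and 16 lower, beside 3.74% and 2.58% of all members. In Cxcr3-/- 8 of 659 were higher and 36 lower, beside 2.96% and 4.88%. Of those higher, zinc finger Zfp genes held 6 of the 11 and 7 of the 8. Of those lower, they held 6 of the 16 and 12 of the 36. The members with values below are even or lower. Relative to all members, the median monocyte to CMP/GMP log2 ratio was below 0 in 9 of the 13 lists in each genotype, ranging from -0.18 to 0.11 in WT and from -0.42 to 0.11 in Cxcr3-/-. Med21, a Mediator subunit, had 135, 136, 128 and 136 scaled tags, while Med23, another subunit, had 196, 211, 113 and 138. The ribosomal protein gene Rpl37 had 234, 245, 139 and 138 tags, and Eif3f, a translation initiation factor, 199, 187, 99.0 and 140. Cct6a, of the CCT chaperonin, had 129, 136, 138 and 135. E2f3, a transcription factor of the cell cycle, had 224, 231, 217 and 235 tags, and Mrps14 236, 210, 207 and 212. Ndufb5, a complex I subunit that shares its member with Mrpl47, had 206, 175, 101 and 77.1 tags, lower in both monocyte libraries. Lars2, the mitochondrial leucyl-tRNA synthetase, had its highest member at the last base, with 310, 305, 114 and 141 tags. Of the core genes with a member, 586 were reached at the first base, 10 at a last base only and 129 had no strand here.

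Myeloid and response genes had members in 107 of 155 cases (69.0%, interval 61.1 to 76.2). Myeloid transcription factors had 38 of 45, the CXCR3 axis 4 of 5 (all but Cxcl9), stem and progenitor genes 17 of 22, interferon-stimulated genes 23 of 30, monocyte genes 15 of 22 and macrophage genes 14 of 24. The granule genes of granulocytes and their precursors had 10 of 24, and 12 of the others, among them Mpo, Elane, Ltf and Lcn2, had a region called in 1 to 3 libraries. At Mpo, which encodes myeloperoxidase, the highest gene-end pileup was 58.4 and 60.8 scaled tags in WT and Cxcr3-/- CMP/GMP, and no interval was called in either monocyte library. Elane, neutrophil elastase, had 30.4 and 41.5 tags in CMP/GMP and none called in monocytes. The monocyte genes Csf1r and Ccr2, which had no member, were not higher in the monocyte libraries by the same measure. Csf1r had 56.0, 51.9, 31.8 and 30.9 tags. Ccr2 had 17.0, 28.9 and 12.1, with no interval called in Cxcr3-/- monocytes.

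Genes of other tissues and of sensory families rarely had a member, 55 of 1710 (3.22%, interval 2.43 to 4.17). Olfactory receptors had 9 of 1110 and vomeronasal receptors 3 of 353. Of other blood lineages, T and NK cell genes had 8 of 24, B cell genes 5 of 20, erythroid and megakaryocyte genes 6 of 23 and mast cell, basophil and eosinophil genes 4 of 18. Hepatocyte genes had 5 of 26, stromal and endothelial genes 5 of 20, neuronal genes 4 of 25, Hox genes 5 of 39 and keratins 2 of 53. Some of these belonged to a neighbour: the member at Vmn1r4, at 142, 118, 109 and 126 tags, also lies at Nt5c3, and the member at Apoa2 also lies at Tomm40l. The ends of Cd3e, a T cell receptor subunit, and of Alb, serum albumin, had no interval in any library.

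**Figure D4:**
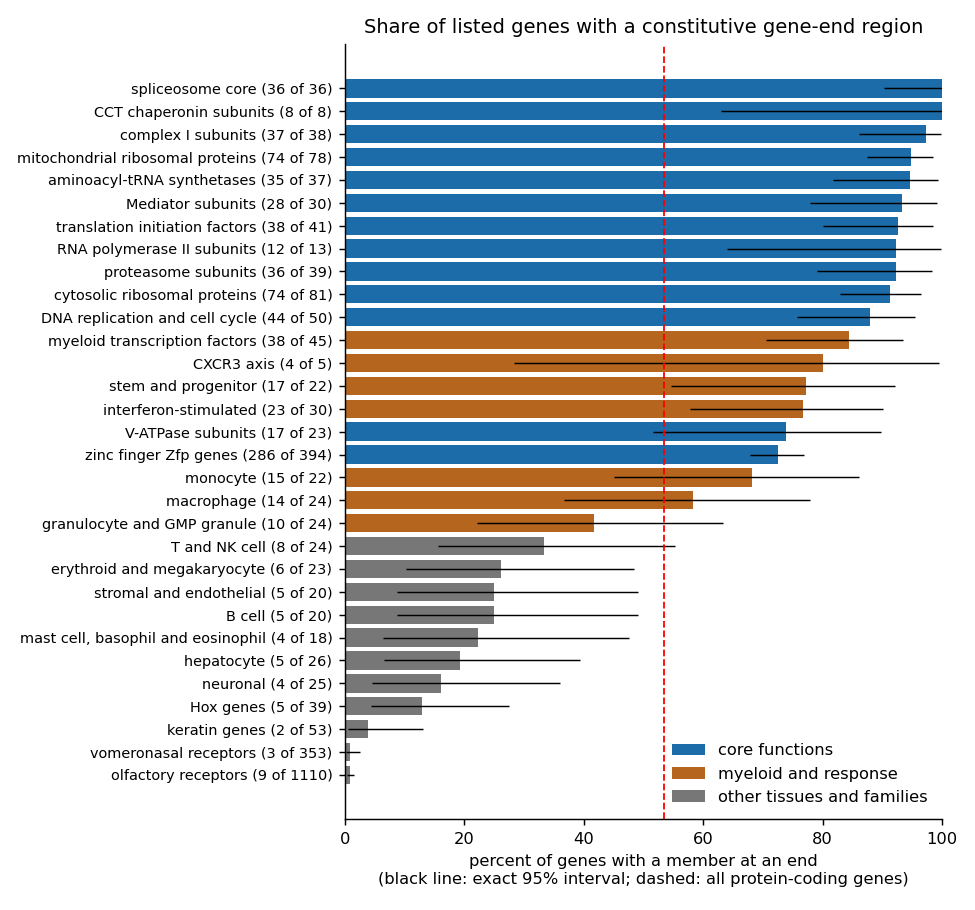
Percent of the genes of each list with a member at an end, bars from 0, with exact 95% Clopper-Pearson intervals as black lines and the share of all protein-coding genes (53.4%) as a dashed line. The core lists lie to its right and the lists of other tissues to its left; the granule list is the myeloid list below it.

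Between cell types fewer members than distal regions were past 2-fold. A log2 ratio of monocytes to CMP/GMP was taken within each genotype where the pair's mean pileup reached 30 tags, and a region past 2-fold was counted as called. In WT 337 of 9000 members (3.74%) were past 2-fold higher in monocytes and 232 (2.58%) lower, beside 13.4% and 5.22% of all regions tested. In Cxcr3-/- 285 of 9615 members (2.96%) were higher and 469 (4.88%) lower, beside 13.1% and 7.44%. The pairs share no library, and 145 of 8859 members (1.64%) were past 2-fold higher in both, beside 8.40% of all regions, with 122 (1.38%) lower in both, beside 2.86%. Of distal regions 12.4% were higher and 3.73% lower in both genotypes.

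These counts depend on what is held equal. Scaling by background tags instead raised every WT ratio by 1.11 and every Cxcr3-/- ratio by 0.49 on the log2 scale, and then 5608 members were past 2-fold higher and 19 lower in WT, 1032 and 91 in Cxcr3-/-, and 904 and 10 in both. Scaling by the median pileup, tried after seeing the data, moved the ratios by -0.11 and -0.13 and left more members lower than higher, with 257 higher and 341 lower in WT, 204 and 729 in Cxcr3-/-, and 112 and 172 in both. Spread does not depend on it: the SD of the log2 ratio over members was 0.54 in WT and 0.56 in Cxcr3-/-, against 0.86 and 0.91 over distal regions. At matched depth, within bins of mean pileup from 30 to 60, 60 to 100 and over 100 tags, the members past 2-fold the same way in both genotypes made up 5.66%, 2.42% and 0.44%, and the distal regions 18.04%, 14.2% and 4.22%. Across the 8859 members the WT and Cxcr3-/- ratios had a Pearson r of 0.64, and across 15403 distal regions 0.83; regions are not replicates, and neighbours in 1 library share its depth and composition.

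Among members whose mean pileup reached 60 tags, the highest library stood a median of 1.39-fold above the lowest, and 64.7% of 5253 were within 1.5-fold. For 5063 distal regions at that depth the median was 1.59-fold and the share 42.1%. Ubap2, a ubiquitin-associated protein, was the most even at 63.3, 63.0, 63.5 and 64.1 tags. Rpl27a, whose upstream letters stand above, had 109, 107, 108 and 112 tags, Tk2, the mitochondrial thymidine kinase, 96.1, 94.2, 92.5 and 92.6, and the start shared by Dlg2 and Tmem126b 225, 235, 230 and 230.

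The members most in favour of monocytes included complement genes of macrophages. C1qc, which encodes a chain of complement C1q, had 15.8 and 15.6 scaled tags in the CMP/GMP libraries and 81.3 and 74.8 in the monocyte libraries, log2 ratios of 2.36 (1.51 to 3.33) in WT and 2.26 (1.53 to 3.05) in Cxcr3-/-. C1qb, another chain, had 13.4, 11.9, 61.7 and 55.8 tags. These genes and the others of the 10 were ranked by this contrast, so the separation of the libraries at them was fixed by the choice. The others were Psd3, an exchange factor for Arf6 (19.5, 21.5, 114 and 112 tags), Jam3, a junctional adhesion molecule (13.4, 17.1, 79.4 and 93.8), Gsg1l, Vash1, Lipn, Prss46, Akr1b8 and Hspb7. At Vash1, Prss46, Akr1b8 and Hspb7 the member lay at the last base.

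Over the macrophage list as a whole, 7 of 13 measured members were past 2-fold higher in WT monocytes and 5 of 13 in Cxcr3-/- monocytes, and none lower, beside 3.74% and 2.96% of all members higher and 13.4% and 13.1% of all regions. The median ratio stood 1.07 above that of all members in WT and 0.70 in Cxcr3-/-. Trem2, a lipid receptor, had 34.1, 31.9, 94.4 and 85.4, and Siglec1, a sialic acid receptor, 24.3, 22.2, 65.4 and 59.3. Ctsl, a lysosomal protease, had 119, 108, 104 and 128, without such a difference, and Cd68, whose member also lies at Eif4a1, had 80.3, 99.4, 111 and 74.8. The monocyte list was nearer the other members, at 0.43 in WT and 0.22 in Cxcr3-/-, with Cd14, the co-receptor for lipopolysaccharide, at 26.8, 37.8, 71.9 and 73.6 tags and Cx3cr1, the fractalkine receptor, at 59.6, 57.8, 72.9 and 77.1. In that list 1 of 11 measured members was past 2-fold higher and none lower in WT monocytes, and 0 of 12 higher and 1 lower in Cxcr3-/-. Lower in monocytes were Itgal, an integrin chain, at 45.0, 54.1, 23.4 and 16.6 tags, and Ly6c2, a surface marker of classical monocytes, at 40.1, 43.7, 27.1 and 30.9. For Ly6c2 the log2 intervals held 0 in WT (-1.339 to 0.197) and in Cxcr3-/- (-1.229 to 0.185).

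The members most in favour of CMP/GMP included Kit, the receptor for stem cell factor, at 65.7 and 60.1 scaled tags in CMP/GMP and 16.8 and 13.1 in monocytes. Its log2 ratios were -1.97 (-2.82 to -1.17) in WT and -2.20 (-3.26 to -1.29) in Cxcr3-/-. Runx3, a RUNX transcription factor, had 86.4, 91.2, 19.6 and 14.2 tags, and Mei4, known from meiotic recombination, had the most uneven values of this group, 103, 108, 14.9 and 11.9. These too were ranked by this contrast. The others were Cacng2, Lama1, Atp2b4, Tuba8, Lbp, Iqsec3 and Spag6l, genes best known from other tissues; Lbp, the lipopolysaccharide-binding protein, had 102, 111, 29.9 and 28.5 tags.

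Among the stem and progenitor genes 4 of 10 measured members were past 2-fold lower in WT monocytes and 4 of 13 in Cxcr3-/-, with none higher, beside 2.58% and 4.88% of all members lower and 5.22% and 7.44% of all regions. The list median stood at -0.70 and -0.14 against all members. Flt3, a receptor of early progenitors, had 96.1, 95.6, 41.1 and 45.1 tags, and Mecom, a stem cell transcription factor, 80.3, 72.7, 25.2 and 21.4. Runx1, the master regulator of blood formation, had 66.9, 61.5, 61.7 and 68.8 tags and was even. The granule list had members on either side: 1 of 6 measured was past 2-fold lower in WT monocytes and 2 of 8 in Cxcr3-/-, none was higher, and its medians stood at -0.07 and 0.11 against all members. Gfi1, a repressor of granulocyte development, had 43.8, 63.0, 10.3 and 13.1 tags, and Ctsg, cathepsin G, 57.2, 48.2, 16.8 and 17.8, both lower in monocytes. The Ctsg member lay 554 bp from the last base of the gene. Itgam, the integrin chain CD11b, had 46.2, 42.3, 80.3 and 55.8 tags, and S100a8, a calcium-binding alarmin, 36.5, 36.3, 48.6 and 57.0, with higher values there. The log2 interval held 0 for Itgam in Cxcr3-/- (-0.189 to 0.983) and for S100a8 in WT (-0.262 to 1.112). Mmp8, the neutrophil collagenase, had 109, 108, 91.6 and 109 at a member 761 bp from its last base. Of the myeloid transcription factors 1 of 32 measured was past 2-fold higher and 1 lower in WT monocytes, and 1 and 3 of 36 in Cxcr3-/-. Stat3 had 156, 165, 150 and 157 tags and Cebpa, the C/EBP factor of granulocyte-monocyte progenitors, 134, 139, 107 and 107.

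The members past 2-fold between cell types in both genotypes lay at last bases more often and had CpG-poorer starts than members at large. Of the 145 higher in monocytes 24 (16.6%) and of the 122 lower 15 (12.3%) lay at a last base only, against 363 of 8859 measured (4.10%). At a mean pileup of 30 to 60 tags, 13.9% of 295 last-base members and 5.37% of 2422 at a single first base were past 2-fold the same way. At 60 to 100 tags the shares were 6.12% of 98 and 2.55% of 1879. With a RefSeq promoter at hand, the 54 higher in monocytes had a median CpG ratio of 0.60 and the 64 lower 0.67, against 0.80 over 6099 members. This comparison was not matched for depth. Members with a CpG ratio under 0.2 had a median mean pileup of 42.5 tags, and those from 0.8 to 1.0 had 70.0. The PU.1 pattern was in 6 of the 54 and 1 of the 64, AP-1 in 7 and 2, and RUNX in 3 and 14, beside 206, 252 and 731 of the 6099. C1qc is one of the 6 with a PU.1 match. The GC box was in 26 and 40, beside 4342.

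Between genotypes few members were past 2-fold. In CMP/GMP 4 of 9515 members were past 2-fold higher in Cxcr3-/- and 7 lower (0.042% and 0.0736%), beside 0.122% and 0.153% of all regions. In monocytes 7 of 8855 were higher and 44 lower (0.0791% and 0.497%), beside 0.274% and 0.395%. Of the 8365 members that reached 30 tags in each pair, none was past 2-fold the same way in both cell types. This allows up to 0.0441%, beside 0.00486% of all regions higher and 0.0% lower. Ranbp6 fell short of that minimum and is not in this count. Its ratio was past 2-fold lower for CMP/GMP (log2 -1.2) as well as for monocytes (log2 -1.38), and each counting interval lay below 0. How many other members under the minimum did the same is not given here. Background scaling moved all Cxcr3-/- to WT ratios by 0.10 in CMP/GMP and by -0.52 in monocytes, and the counts became 20 higher and 2 lower in CMP/GMP and 0 and 999 in monocytes. Median-pileup scaling gave 5 and 4 in CMP/GMP. The SD of the ratio over members was 0.26 in CMP/GMP and 0.34 in monocytes, and the correlation of these ratios across the 8365 members was -0.17 (Pearson r), with no library in common.

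Small shifts between libraries went with CpG content. From members with a ratio under 0.2 to those at 1.0 and over, the median Cxcr3-/- to WT log2 ratio of CMP/GMP went from -0.02 to 0.10, and that of monocytes from -0.03 to -0.10. Over the same span the cell type ratio, monocytes over CMP/GMP, went from 0.23 to -0.25 in Cxcr3-/- and from 0.26 to -0.05 in WT. The libraries also differed in the tag extension recovered from the files (118, 125, 100 and 111 bp), and its part in these shifts was not tested.

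Pgk1 led the genotype comparison. Its member (chrX:106186722-106187322), at the start of the gene for the glycolytic enzyme phosphoglycerate kinase, had 134 scaled tags in WT and 231 in Cxcr3-/- CMP/GMP, and 90.6 in WT and 201 in Cxcr3-/- monocytes. Both Cxcr3-/- libraries were above both WT libraries. The log2 ratio of Cxcr3-/- to WT was 0.79 for CMP/GMP (0.47 to 1.12) and 1.15 for monocytes (0.78 to 1.52), and by the interval bound nearest 0 it ranked first of all members in each cell type, though the pairs share no library. The summits lay 72 to 121 bp upstream of the first base, inside the letters printed for Pgk1 above.

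The Pgk1 promoter is widely used in gene targeting and expression constructs to drive a selectable marker; the construct behind the Cxcr3-/- allele is not described in the labels, and its part in these values was not tested. Pgk1 also lies 4.45 Mb from Cxcr3 on X. The other 43 members within 5 Mb of Cxcr3 had a median ratio of 0.10 for CMP/GMP, ranging from -0.89 to 0.67, and of -0.02 for monocytes, ranging from -0.98 to 1.05. No neighbour in that stretch had a ratio above that of Pgk1 in either cell type. Pgk1 was named for ranking first in this contrast, so the choice largely fixed this. The part of its nearness to Cxcr3 in these values was not tested. Over all 11810 members 1 other, Mboat4, had ratios as high in both cell types, 0.87 and 1.24 with lower interval bounds of 0.10 and -0.19, from 23.1, 42.3, 6.54 and 15.4 scaled tags.

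Few members had counting intervals on the same side of 0 in both cell types, 5 above (Pgk1 included) and 6 below of 11810, while 36 were above in CMP/GMP and below in monocytes and 24 the reverse. Above 0 with Pgk1 were Eef1a1, the translation elongation factor (109, 144, 113 and 158 tags), Zbtb18, a neural repressor (181, 228, 177 and 223), Cant1 and Gps1. Below were Ranbp6 (34.1, 14.8, 40.2 and 15.4 tags), Ltb, which encodes lymphotoxin beta (47.4, 27.4, 43.0 and 20.2), Kiss1r, Rad51c, Dmwd and Mfsd14b. These 11 were picked by their values, so the order of the libraries in them is no support.

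The remaining members ranked for the genotype comparison were apart in 1 cell type. In CMP/GMP the next highest toward Cxcr3-/- were Rdm1, Pold3 and Mcm2, which act in DNA repair or replication, and Btbd19. Pold3, a subunit of DNA polymerase delta, had 51.1, 92.7, 51.4 and 46.3 tags, and Mcm2, a subunit of the replicative helicase, 30.4, 60.8, 65.4 and 47.5. The replication list as a whole stood 0.03 from all members in CMP/GMP. Lowest were Plxna2, Atoh7, Zfp945, Lgals3bp and Hbb-bt; Lgals3bp, a galectin-binding protein, had 59.6, 29.7, 71.0 and 72.4 tags.

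In monocytes the next highest were the start shared by Emc6 and Tax1bp3, Zfp975, Cdc14b and Mpp7. At Emc6, a subunit of a membrane protein insertase, the values were 136, 128, 58.9 and 135 tags, so the WT monocyte library was the low one. Lowest were the start shared by Kntc1 and Rsrc2, Aars, Csf2rb2, Setdb1 and Tcirg1. Kntc1, a kinetochore protein, had 81.5, 80.8, 90.6 and 38.0 tags, and Aars, the alanyl-tRNA synthetase, 57.2, 53.4, 61.7 and 24.9, with Cxcr3-/- monocytes low at both. Setdb1, a histone H3 lysine methyltransferase, had 35.3, 41.5, 43.0 and 15.4 tags.

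**Figure D5:**
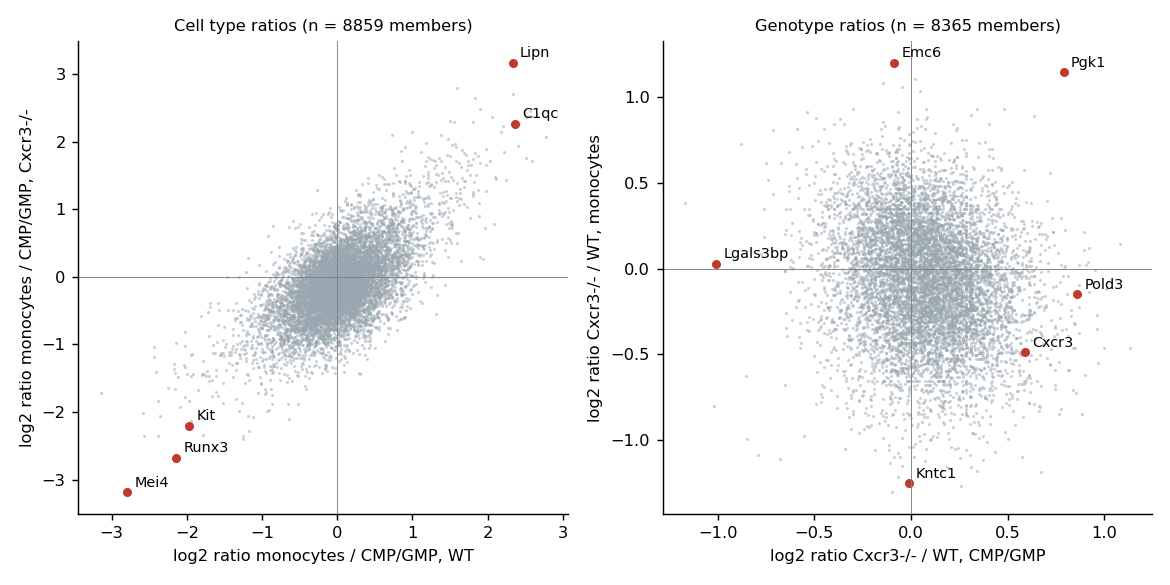
Log2 ratios of scaled pileup for members whose mean pileup reached 30 tags in each pair; left, monocytes to CMP/GMP in WT (x) and Cxcr3-/- (y) for 8859 members, and right, Cxcr3-/- to WT in CMP/GMP (x) and monocytes (y) for 8365. Grey points are members and red points named ones; the left cloud runs along the diagonal, and on the right Pgk1 lies at 0.79 and 1.15.

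Cxcr3 itself is among the members (chrX:101733698-101734465, over its first base). It had 41.4 scaled tags in WT and 62.3 in Cxcr3-/- CMP/GMP, and 38.3 in WT and 27.3 in Cxcr3-/- monocytes; the genotypes do not fall in 1 order. The Cxcr3-/- to WT log2 ratio was 0.59 for CMP/GMP (-0.00 to 1.21) and -0.49 for monocytes (-1.29 to 0.28), and with background scaling 0.69 (0.10 to 1.31) and -1.01 (-1.81 to -0.24). The part of the gene that the allele removes is not given here, so signal at its first base checks nothing about the labels. Of its axis, Cxcl10, a ligand, had 41.4, 41.5, 52.3 and 49.8 tags, Pf4, another ligand gene, 18.2, 20.8, 37.4 and 36.8, and Dpp4, a protease that cuts these chemokines, 29.2, 37.8, 21.5 and 30.9.

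Interferon-stimulated genes, among which Cxcl10 is counted, stood close to the other members between genotypes, with list medians -0.05 from all members in CMP/GMP and 0.03 in monocytes. None of 20 measured in CMP/GMP and none of 19 in monocytes was past 2-fold. All regions were past 2-fold higher and lower in 0.122% and 0.153% of cases in CMP/GMP and in 0.274% and 0.395% in monocytes, so nothing is read from these counts. Stat2, a factor of interferon signalling, had 118, 103, 122 and 120 tags, and Irf9, its partner, 69.3, 77.1, 70.1 and 81.9. Ifih1, a sensor of viral RNA, had 119, 113, 52.3 and 79.5, and was past 2-fold lower in WT monocytes only. The difference of that ratio between genotypes was not tested.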

How the data were processed

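The tools named in the submitters' processing notes are Trim Galore, Bowtie2 and SAMtools, and the build is mm10. The sources used here give neither the peak caller nor whether the duplicate sequencing named in the labels was pooled. The authors deposited 1 list of accessible intervals per library (69521 and 80171 intervals for WT and Cxcr3-/- CMP/GMP, 98257 and 78244 for WT and Cxcr3-/- monocytes, the order used for all values by library). The deposited fold is the authors' ratio of summit pileup to expected background. Both −log10 columns (p and q) were computed by the authors' caller and deposited with each interval, and the deposited score was not used. The deposited summit offset (unit other) gave positions. All of these are the authors' values per interval.

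The whole-number pileup was recovered from fold and −log10 p, assuming a Poisson background and 1 added tag; a whole number within 0.001 was found for all but 0, 2, 1 and 0 intervals. Total depth is not in the files; median summit pileups were 21 to 29 tags and genome-wide backgrounds 1.59, 2.43, 0.956 and 1.08 tags. Scaling factors were 0.822, 1.35, 1.07 and 0.843, from the median ratio over regions called in all 4 libraries. Log2 ratios carry exact 95% conditional binomial (Clopper-Pearson) intervals for counting error. Recovery, intervals and calls were tested on simulated data. Gene ends and promoter sequences are RefSeq's for GRCm38.p6. Named members are the 10 highest in mean pileup, the 10 per direction between cell types (same direction in both genotypes) and 5 per direction and cell type between genotypes by the interval bound nearest 0, the 10 most even, 3 per list by mean pileup, Cxcr3, and those at each limit; other list members with values were picked after these were seen. Alternatives were other windows, widths, overlaps, list lengths, pileup minimums and scalings. Longer patterns of NRF1, ZBTB33, ZNF143 and CTCF were searched as well and are not reported here. The members, lists and rules were chosen with earlier results of these data known. Python 3.11.15, NumPy 2.4.6, pandas 2.3.3, SciPy 1.17.1 and matplotlib 3.10.9 were used.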

Additional observations from a re-analysis of the deposited data

Results flagged for a closer look

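Among the named members other than those named from gene lists, 3 had counting intervals on opposite sides of 0 under the same contrast. The differences were not tested, and members named from the lists were not checked. Over all 11810 members, Cxcr3-/- to WT intervals were above 0 in CMP/GMP and below in monocytes for 36, and the reverse for 24. The Cxcr3-/- to WT log2 ratio of Opn3 was -0.34 in CMP/GMP and 0.31 in monocytes, and that of Qdpr was -0.27 and 0.56. The monocyte to CMP/GMP log2 ratio of Qdpr was -0.46 in WT and 0.37 in Cxcr3-/-, from the same 4 libraries, and that of Zbtb20 was -0.42 and 0.34. All 3 are among the 10 members with the highest pileups, where counting intervals are narrowest.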

How the results depend on the processing

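The number of members was 8942 to 13876 under the windows, widths, overlap and list length tried, against 11810. The median mean scaled pileup of members was 49.4 tags under 1000 bp and 52.9 with no width limit, against 52.7. For distal regions it was 30.7 and 30.9 tags, against 30.9. The share of genes with a member was 50.04% with a window of 500 bp, 57.9% with 2 kb and 51.3% with equal list lengths, against 53.4%. Scaling by background tags gave, higher and lower in monocytes, 5608 and 19 members past 2-fold in WT, 1032 and 91 in Cxcr3-/-, and 904 and 10 in both; between genotypes it gave 20 higher and 2 lower in CMP/GMP and 0 and 999 in monocytes. A mean pileup of at least 60 tags left 76 and 62 in WT, 97 and 166 in Cxcr3-/-, 33 and 22 in both, 0 and 0 between genotypes in CMP/GMP and 3 and 4 in monocytes. With at least 10 tags, 427 were higher and 558 lower in WT and 189 and 239 in both, so that lower outnumbered higher, and between genotypes 7 were higher and 23 lower in CMP/GMP and 63 and 98 in monocytes. Scaling by the median pileup, an alternative chosen after seeing the data, did the same in WT (257 and 341) and in both (112 and 172); it gave 204 and 729 in Cxcr3-/-, and between genotypes 5 and 4 in CMP/GMP. The minimums change which regions are counted, and the scalings shift all ratios alike. For the log2 ratios of members ranked in either comparison and of Cxcr3, an interval that left out 0 did so on the same side under the other scalings, and a ratio whose interval held 0 stayed within that interval, in 127 of 128 cases. The exception was Cxcr3, whose WT monocyte to CMP/GMP ratio went from -0.11 to 1.00 with background scaling. Apart from Cxcr3, these members were ranked by how far their intervals lay from 0, so the choice largely fixed this count. It does not bear on members at large. The Cxcr3-/- to WT ratios of Cxcr3 are among the 127, although with background scaling their intervals left out 0. No paired analysis was possible because the groups have 1 library each and so share only 1 replicate number; a fit of cell type with genotype as a block, which leaves 1 residual degree of freedom, was not run. Leaving out a library would leave a group empty. Depth limits single ratios: median pileups were 21 to 29 tags, and the WT interval of C1qc spans 1.51 to 3.33.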
